A study of Arabidopsis thaliana with 20 samples.

Results

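Shoots of the Arabidopsis thaliana line DM6-DM7 were compared with shoots of its parent accession Col-0, both 14 days after sowing (DAS), over every nuclear gene. The members are all genes of the deposited count table whose identifiers begin with AT1G to AT5G, which are 32548 of its 32833 genes. Of these, 20886 had enough counts to be tested. The 6 libraries, 3 per group, are part of a series of 20. DM6-DM7 is Col-0 transformed with a pair of DANGEROUS MIX (DM) genes, natural alleles of immune loci that cause autoimmunity when combined. DM6 is a nucleotide-binding leucine-rich repeat receptor (NLR) of the RPP7 type, and DM7 is a protein of the RPW8/HR type. Col-0 carries its own relatives of both genes. Plants of both groups grew on agar with sucrose under long days, and their aerial tissue was taken. Both groups carry the same batch tag. The labels do not say which promoters drive DM6 and DM7, how many transformed lines were used or how many plants made a library. The replicates are called biological with no further detail, so each p-value measures the spread between these libraries only.

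NLRs are receptors inside plant cells that detect pathogen activity, and an NLR that is active without a pathogen gives autoimmunity. Receptors with a TIR domain signal through EDS1, PAD4 and SAG101 to the helper NLRs of the ADR1 and NRG1 families, while RPP7-type receptors have a coiled-coil domain and can form complexes with HR-type proteins. Active NLR immunity raises the hormone salicylic acid, pathogenesis-related (PR) proteins and cell death, and autoimmune plants are commonly small.

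Library totals were 97800801 to 119100007 counts in DM6-DM7 libraries and 105452598 to 127276992 counts in those of Col-0. Levels below are counts per 1000000 (CPM) after scaling, and a gene with 3 counts in 1 library stands at 0.0218 to 0.0341 CPM. The first principal component, 76.9% of the variance, separated the groups. The second, 10.2%, set Col-0 replicate 1 (82.4) apart from Col-0 replicates 2 and 3 (-44.2 and -47.9). The 20 most counted genes took 8.99% to 9.78% of counts in DM6-DM7 libraries and 16.8% to 21.8% in Col-0, and plastid genes took 0.0419% to 0.0465% and 0.0772% to 0.136%. The tissue label was checked on markers. All 7 shoot markers were detected at 15.2 CPM or more in every library, and the 11 root markers summed to 1.33 to 1.69 CPM in DM6-DM7 and 1.48 to 2.37 CPM in Col-0. In whole shoots, fewer cells of a type and less RNA per cell cannot be told apart.

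The upstream sequences of 4 genes are shown because these genes, or their lists, carry the results below. PRX34 and CRK18 stand for immune genes that rose, SPX3 for phosphate starvation genes that rose, and LHCB2.3 for light-harvesting genes that fell. Each is the 300 bases before the annotated start of the gene, from RefSeq (TAIR10.1), written 5′ to 3′ on the strand of the gene. Capitals mark the W-box core TTGAC or its reverse complement GTCAA in PRX34 (chr3:18207351-18207650, plus strand) and CRK18 (chr4:12170081-12170380, minus strand). They mark the phosphate motif P1BS, GNATATNC, in SPX3 (chr2:18606110-18606409, plus strand) and the G-box CACGTG in LHCB2.3 (chr3:10255606-10255905, plus strand).
PRX34: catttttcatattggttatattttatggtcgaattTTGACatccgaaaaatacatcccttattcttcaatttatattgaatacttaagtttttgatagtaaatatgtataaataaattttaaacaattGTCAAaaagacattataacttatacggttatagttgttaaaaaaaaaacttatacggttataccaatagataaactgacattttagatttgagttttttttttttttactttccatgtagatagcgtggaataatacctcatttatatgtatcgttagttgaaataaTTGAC
CRK18: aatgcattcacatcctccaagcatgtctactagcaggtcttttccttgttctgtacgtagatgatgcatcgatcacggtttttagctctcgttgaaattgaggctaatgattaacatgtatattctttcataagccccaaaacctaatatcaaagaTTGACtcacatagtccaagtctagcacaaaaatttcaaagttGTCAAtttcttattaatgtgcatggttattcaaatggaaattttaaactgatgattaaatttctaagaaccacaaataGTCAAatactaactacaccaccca
SPX3: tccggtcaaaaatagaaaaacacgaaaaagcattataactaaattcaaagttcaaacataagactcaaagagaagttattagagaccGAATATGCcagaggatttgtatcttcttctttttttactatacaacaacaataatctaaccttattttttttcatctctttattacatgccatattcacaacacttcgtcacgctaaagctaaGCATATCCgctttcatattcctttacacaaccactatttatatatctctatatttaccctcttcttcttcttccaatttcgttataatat
LHCB2.3: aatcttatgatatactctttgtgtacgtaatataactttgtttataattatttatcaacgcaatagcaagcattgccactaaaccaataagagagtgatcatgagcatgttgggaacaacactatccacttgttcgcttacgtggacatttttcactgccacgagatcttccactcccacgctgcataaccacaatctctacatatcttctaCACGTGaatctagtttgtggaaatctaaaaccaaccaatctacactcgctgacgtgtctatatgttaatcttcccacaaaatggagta

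Of the nuclear genes tested, 11148 (53.4%) differed between DM6-DM7 and Col-0 at an adjusted p below 0.05 (edgeR quasi-likelihood test, Benjamini-Hochberg over all genes tested). Higher in DM6-DM7 were 5634 (27.0%) and lower were 5514 (26.4%), with a median log2 fold change of 0.01 over all genes tested. At least 2-fold higher were 2906 genes (13.9%) and at least 2-fold lower were 3536 (16.9%). The libraries of the groups did not overlap for 13662 genes (65.4%). These shares are the background for every list below. Most changes lay in genes detected in both groups, since 4679 of the higher and 4427 of the lower genes had a mean of at least 1 CPM in each. No count at all was found in Col-0 for 88 of the higher genes, and none in DM6-DM7 for 29 of the lower genes. Long non-coding RNAs were called less often than protein-coding genes, with 12.1% of 307 higher and 7.82% lower against 27.4% and 26.9% of 20331, a description without a test.

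**Figure D1:**
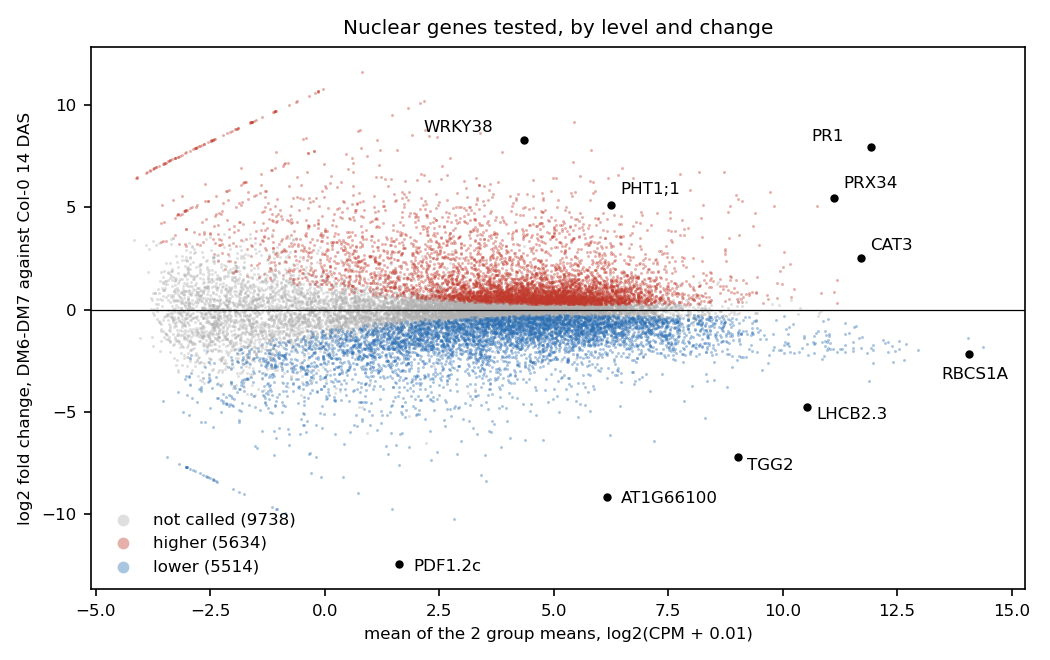
Each point is a nuclear gene tested, with the mean of the group means as log2(CPM + 0.01) on the x axis and the log2 fold change of DM6-DM7 against Col-0 on the y axis, coloured by call. Higher genes (5634) lie above the zero line and lower genes (5514) below it, over the whole range of levels.

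**Figure D2:**
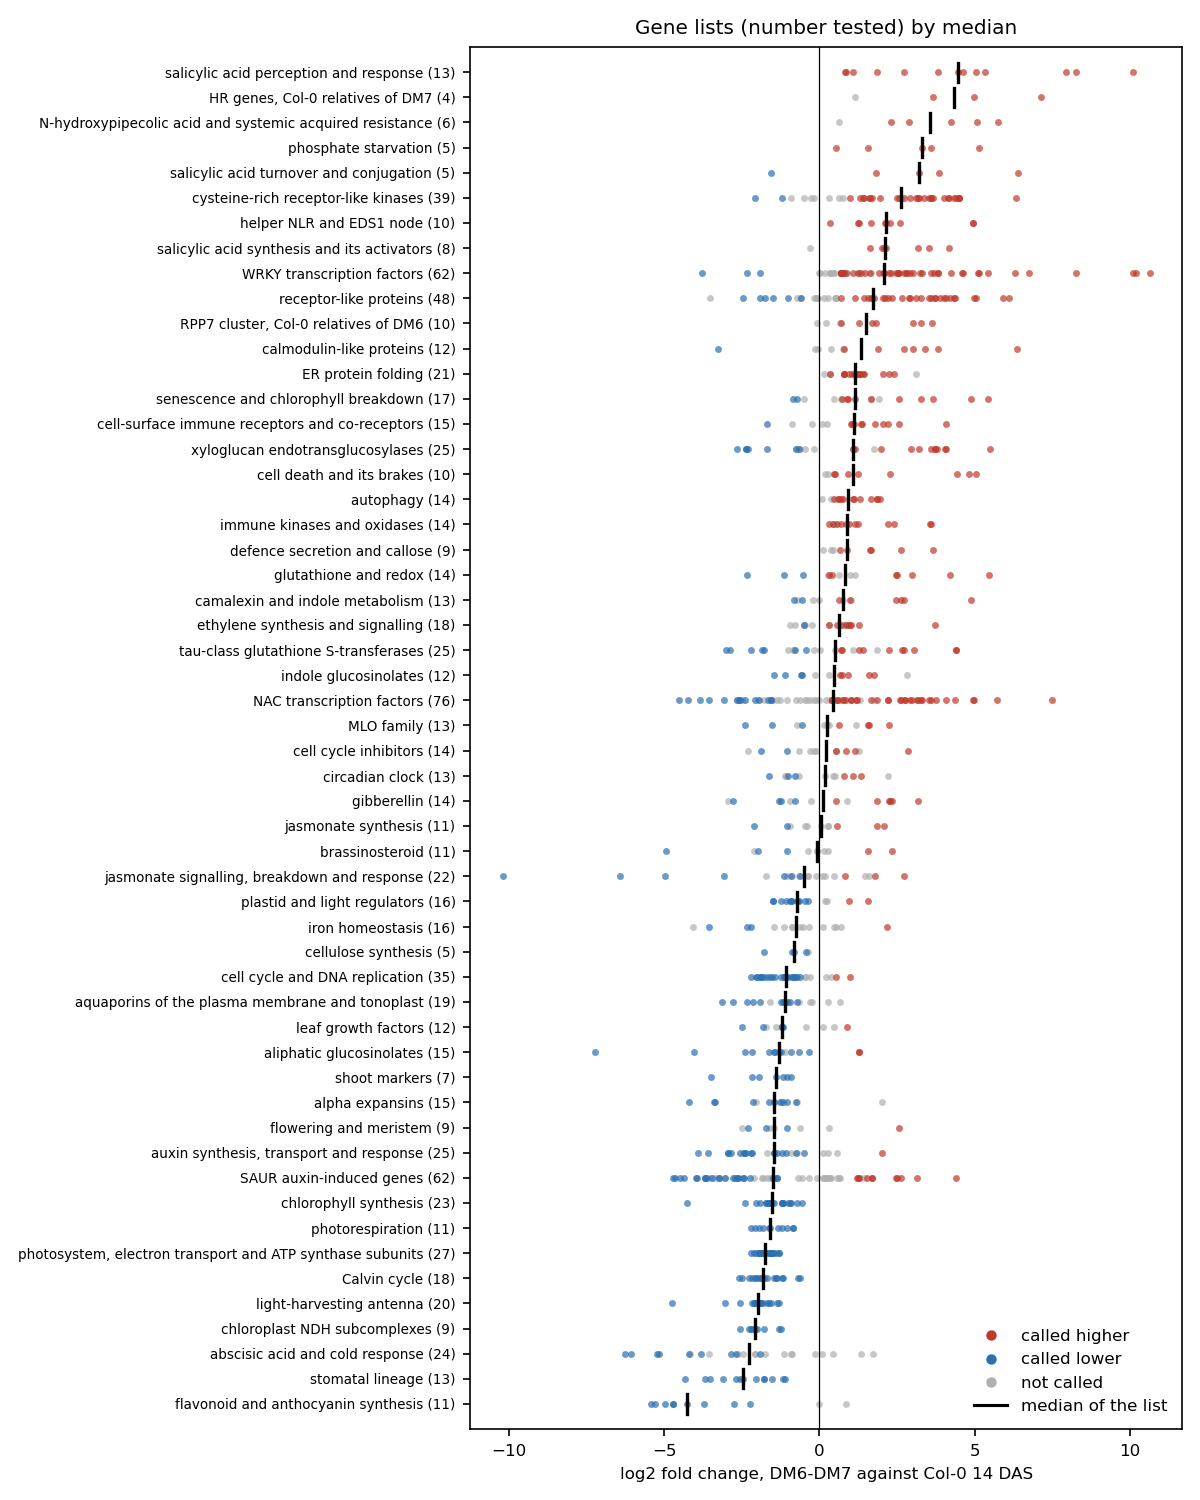
Each point is a tested member of a gene list, placed by its log2 fold change of DM6-DM7 against Col-0 and coloured by call, with the median of the list marked and lists ordered by median. The list of salicylic acid perception and response has a median of 4.47 and that of flavonoid and anthocyanin synthesis one of -4.28.

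The nearest Col-0 relatives of both introduced genes had higher counts in DM6-DM7. Reads of the introduced genes can fall on these relatives, and gene counts cannot tell them apart. RPP7 (AT1G58602; chromosome 1, 21746354 to 21766048), which gives Col-0 resistance to a downy mildew strain, stood at 225, 249 and 237 CPM in DM6-DM7 and at 133, 154 and 148 CPM in Col-0. The groups did not overlap, and RPP7 rose 1.63-fold, with a log2 fold change of 0.71 ± 0.10 (SE) and an adjusted p of 0.00112. In all, 7 of the 10 RPP7 cluster genes were higher and none was lower, with a median of 1.49. The 3 genes without a call were RF45 (0.21), AT1G59124 (0.66) and CW9 (-0.08). RF45 and AT1G59124 are near-identical copies, as are AT1G58848 and AT1G59218, so reads may be split between them. AT1G58390 rose 12.7-fold from at most 0.199 CPM. The calls of AT1G58410 and AT1G59780, both under 2 CPM, were lost without single libraries, at an adjusted p of up to 0.0609 and 0.128, and that of AT1G59218 at up to 0.0709. HR4 (AT3G50480; chromosome 3, 18733021 to 18734420), a small RPW8-like protein gene, stood at 987, 1006 and 934 CPM in DM6-DM7 and at 27.3, 158 and 45.8 CPM in Col-0. It rose 12.7-fold (log2 fold change 3.66 ± 0.67, adjusted p = 0.00443), and its log2 fold change was 4.73 without Col-0 replicate 2. HR3 rose 31.4-fold, and its log2 fold change of 4.97 was 5.61 without that library. HR2 had 2 counts in all of Col-0, and the ratio of its counts was 168, with a 95% counting interval from 46.1 to 1389. HR1 had 0.0181 to 0.372 CPM, and its groups overlapped.

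The 10 members of the list of helper NLRs and EDS1 partners were all higher in DM6-DM7, against 27.0% of all genes tested. Their median log2 fold change was 2.14, and their summed level was 749 to 767 CPM in DM6-DM7 and 185 to 238 CPM in Col-0. ADR1, a helper NLR, stood at 79.1, 76.1 and 71.3 CPM in DM6-DM7 and at 21.9, 19.1 and 11 CPM in Col-0. Every DM6-DM7 library lay above every Col-0 library, and ADR1 rose 4.35-fold (log2 fold change 2.12 ± 0.25, adjusted p = 0.000580). Its relatives ADR1-L1 and ADR1-L2 rose 4.86-fold and 2.42-fold. The other helper family was uneven. NRG1.2 rose 3.15-fold and NRG1.3, a truncated member, 32.2-fold, while NRG1.1 stood at 30.3, 33.4 and 30.5 CPM in DM6-DM7 and at 23.0, 23.6 and 28.2 CPM in Col-0. The NRG1.1 change of 1.26-fold (adjusted p = 0.0447) was lost under RLE and upper-quartile scaling, with DESeq2 (adjusted p = 0.0502) and in 5 of 6 cases when 1 library was left out, at an adjusted p of up to 0.152. The log2 fold change of NRG1.3 was 4.96, and 6.78 without Col-0 replicate 2. Of the EDS1 family of lipase-like proteins, EDS1 rose 2.35-fold, SAG101 4.46-fold and PAD4 6.06-fold. EDS1B, a second copy of EDS1 next to it, stood at 43.2, 50.9 and 40.9 CPM in DM6-DM7 and at 0.929, 2.18 and 1.24 CPM in Col-0. It rose 31.0-fold. The copies are similar in sequence and may share reads.

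Salicylic acid genes rose together from synthesis to response. Of the 8 genes of synthesis and its activators, 7 were higher and none was lower (median 2.11). ICS1, the enzyme that makes isochorismate as the first step, stood at 101, 110 and 116 CPM in DM6-DM7 and at 14.1, 42.2 and 25.2 CPM in Col-0. The groups did not overlap, and ICS1 rose by 2.01 ± 0.38 on the log2 scale (adjusted p = 0.00493). EDS5, which exports isochorismate from the plastid, rose by 2.14, and PBS3, which couples it to glutamate, by 3.54. Col-0 replicate 2 was the highest Col-0 library for ICS1, EDS5 and PBS3, and without it their log2 fold changes were 2.47, 2.87 and 4.56. EPS1, which acts after PBS3, had a log2 fold change of -0.30 and was not called. The transcription factors SARD1 and CBP60G rose 17.9-fold and 9.07-fold. Genes that remove salicylic acid rose as well, with DMR6 and DLO1, its hydroxylases, 14.5-fold and 85.2-fold higher. The log2 fold change of DLO1 was 6.41, and 7.49 without Col-0 replicate 2. Of the glucosyltransferases, UGT74F2 rose 3.53-fold and UGT74F1 fell 2.93-fold.

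All 13 genes of salicylic acid perception and response were higher, with a median of 4.47. PR1 (AT2G14610; chromosome 2, 6241640 to 6242541), a secreted antimicrobial protein gene and the standard marker of the hormone, stood at 7340, 8242 and 7830 CPM in DM6-DM7 and at 16.1, 48.8 and 30.3 CPM in Col-0. No other gene that rose had as high a mean CPM over the 6 libraries, and PR1 rose 246-fold (log2 fold change 7.94 ± 0.49, adjusted p = 7.45e-05). PR5 rose 22.2-fold, and PR2, a glucanase gene, stood at 1711 to 1776 CPM in DM6-DM7 and at 5.0, 107 and 45 CPM in Col-0. The PR2 log2 fold change was 5.05, and 6.10 without Col-0 replicate 2. The receptors of the hormone changed less, with log2 fold changes of 1.08 for NPR1, 1.86 for NPR3 and 0.86 for NPR4. WRKY38, which binds DNA and lowers basal defence, stood at 41.7, 42.8 and 37.7 CPM in DM6-DM7 and at 0.0751, 0.218 and 0.0909 CPM in Col-0. It rose by 8.28 ± 0.36 on the log2 scale, and by 8.92 without Col-0 replicate 2. The summed level of the list was 10155 to 11040 CPM in DM6-DM7 and 131, 322 and 211 CPM in Col-0 replicates 1, 2 and 3. The list of N-hydroxypipecolic acid and systemic acquired resistance, which holds EARLI1 and AZI1 too, had 5 of 6 tested genes higher (median 3.55). N-hydroxypipecolic acid is the mobile signal of that resistance. FMO1, the enzyme that makes it, rose by 4.24 (5.24 without Col-0 replicate 2), and SARD4, which acts before it, by 2.3. ALD1, the first enzyme, stood at 1.81, 1.85 and 1.97 CPM in DM6-DM7 and at 0.188, 3.11 and 0.352 CPM in Col-0. Its groups overlapped and it was not called. EARLI1 and AZI1, lipid transfer proteins of systemic immunity, rose 53.9-fold and 34.1-fold.

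**Figure D3:**
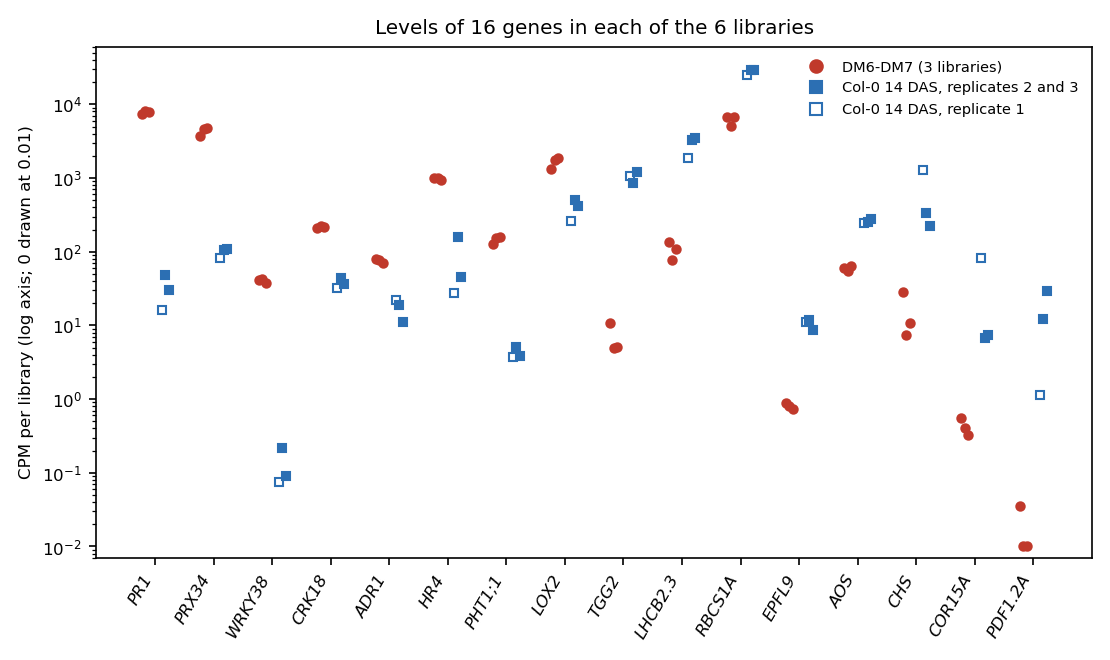
Points are CPM of 16 genes in each of the 6 libraries on a log axis, with DM6-DM7 as circles, Col-0 14 DAS as squares and Col-0 replicate 1 as open squares. PR1 stands at 7340 to 8242 CPM in DM6-DM7 and at 16.1 to 48.8 CPM in Col-0, and COR15A and CHS are highest in Col-0 replicate 1.

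Receptors at the cell surface were higher as large families. Of 39 cysteine-rich receptor-like kinases (CRKs) tested, 29 were higher and 2 lower, with a median of 2.64. CRK18 stood at 207, 223 and 219 CPM in DM6-DM7 and at 32.5, 44.6 and 36.9 CPM in Col-0. The groups lay far apart, and CRK18 rose 5.70-fold (log2 fold change 2.51 ± 0.14, adjusted p = 4.64e-05). A run of CRK genes on chromosome 4 (12117491 to 12191704) held 17 higher and no lower gene of 20 tested, with a median of 2.63. The CRKs elsewhere held 12 higher and 2 lower of 19, with a median of 2.64. Lower were CRK41 (2.32-fold) and CRK42 (4.2-fold). Receptor-like proteins, which lack a kinase domain, had 30 higher and 6 lower of 48 tested (median 1.73). RLP23, the receptor of a peptide found in fungi, oomycetes and bacteria, stood at 209, 205 and 192 CPM in DM6-DM7 and at 2.11, 24.4 and 8.93 CPM in Col-0. Its log2 fold change was 4.09, and 5.19 without Col-0 replicate 2. The list of 15 surface receptors and co-receptors, which holds RLP23 too, had 10 higher and 1 lower (median 1.12). The co-receptor kinase SOBIR1 rose 5.95-fold and BIR1, which restrains BAK1, 4.62-fold. FLS2, the flagellin receptor, stood at 22.1, 21.0 and 27.8 CPM in DM6-DM7 and at 6.04, 18.4 and 36.0 CPM in Col-0, so the groups overlapped. PEPR1, a receptor of plant wound peptides, fell 3.23-fold.

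Immune kinases and oxidases changed less, with 12 higher and none lower of 14 and a median of 0.90. BIK1, a kinase at surface receptors, rose 5.25-fold. The NADPH oxidase RBOHF stood at 50.9, 60.0 and 52.8 CPM in DM6-DM7 and at 15.1, 9.47 and 10.9 CPM in Col-0 and rose 4.62-fold. RBOHD stood at 118, 117 and 119 CPM in DM6-DM7 and at 120, 65.5 and 63.5 CPM in Col-0. It was not called (adjusted p = 0.128), and Col-0 replicate 1 lay at the level of DM6-DM7. The kinase genes MPK3, MPK4 and MPK6 rose by 0.58, 0.68 and 0.32 on the log2 scale, and the MPK6 call was lost in 5 of 6 cases when 1 library was left out. Of 62 WRKY transcription factors tested, 44 were higher and 3 lower (median 2.07). WRKY54 and WRKY45 rose 24.6-fold and 12.8-fold, while WRKY44, known from trichomes and seed coats, fell 13.8-fold (log2 fold change -3.79, or -4.51 without DM6-DM7 replicate 1). Of 12 calmodulin-like genes, 7 were higher and 1, CML39, was lower. CML39 lay at or below 0.253 CPM, and its call (adjusted p = 0.0491) was lost without single libraries in 5 of 6 cases.

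The peroxidase and catalase genes went opposite ways within a family, while protein folding and cell death genes were mostly higher. Of 14 glutathione and redox genes, 7 were higher and 3 lower (median 0.81). PRX34 (AT3G49120; chromosome 3, 18207651 to 18210333), an apoplastic peroxidase that makes reactive oxygen, stood at 3732, 4564 and 4722 CPM in DM6-DM7 and at 82.6, 106 and 108 CPM in Col-0. It rose 43.8-fold (log2 fold change 5.45 ± 0.18, adjusted p = 2.77e-05). Its neighbour PRX33 stood at 11.7, 5.78 and 6.48 CPM in DM6-DM7 and at 22.4, 29.6 and 67.9 CPM in Col-0. It fell 5.0-fold, with a log2 fold change of -2.32, or -1.71 without Col-0 replicate 3. The catalase gene CAT3 stood at 4876, 5641 and 6639 CPM in DM6-DM7 and at 544, 889 and 1603 CPM in Col-0. CAT2, the catalase of photorespiration, stood at 1943, 1661 and 1657 CPM in DM6-DM7 and at 4817, 3762 and 3027 CPM in Col-0. Neither pair of groups overlapped, and CAT3 rose 5.65-fold while CAT2 fell 2.21-fold. Of 21 genes of protein folding in the endoplasmic reticulum, 18 were higher and none lower (median 1.16), with the calreticulin CRT3 5.25-fold higher. Of 9 genes of defence secretion and callose, 6 were higher (median 0.89), among them PDLP5, which closes plasmodesmata, 12.7-fold.

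Of 10 tested genes of cell death and its brakes, 8 were higher (median 1.07). BAP1, an inhibitor of cell death, stood at 42.6, 39.0 and 38.5 CPM in DM6-DM7 and at 1.08, 2.00 and 0.534 CPM in Col-0. It rose 33.2-fold, and the metacaspase MC2 rose 28.2-fold. Of 14 autophagy genes, 12 were higher and none lower (median 0.92), and the cargo receptor NBR1 rose 3.63-fold. Of 17 tested genes of senescence and chlorophyll breakdown, 10 were higher and 2 lower (median 1.15). SAG12 of the same list had too few counts to be tested, with 10, 0 and 6 in DM6-DM7 and 28, 0 and 0 in Col-0. ORE1, a senescence NAC factor, stood at 54.3, 49.3 and 48.1 CPM in DM6-DM7 and at 3.99, 6.45 and 5.29 CPM in Col-0 and rose 9.64-fold. The steps of chlorophyll breakdown split, since PAO rose 2.22-fold and PPH 1.86-fold while NOL fell 1.64-fold and RCCR 1.79-fold.

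The gene lists of defence metabolites derived from tryptophan and from methionine differed in direction, and no metabolite was measured. Of 13 genes of camalexin and indole metabolism, 6 were higher and 2 lower (median 0.75), with GSTF6 6.58-fold and CYP79B2 1.99-fold higher. The indole glucosinolate list had 5 higher and 4 lower of 12 (median 0.48), and 3 or 2 higher without DM6-DM7 replicate 2 or 3. The transporter PEN3 rose 3.02-fold, and MYB34, an activator of the pathway, fell 2.78-fold. The aliphatic glucosinolate list, which holds the myrosinase genes TGG1 and TGG2 too, had 12 lower and 2 higher of 15 (median -1.31). MYB29, an activator of aliphatic glucosinolate genes, stood at 1.98, 1.75 and 1.80 CPM in DM6-DM7 and at 37.8, 28.4 and 25.3 CPM in Col-0. It fell 16.5-fold. TGG2, a myrosinase that splits glucosinolates, stood at 10.8, 4.95 and 5.15 CPM in DM6-DM7 and at 1073, 843 and 1197 CPM in Col-0. It fell 149-fold (log2 fold change -7.22 ± 0.42, adjusted p = 6.59e-05), and TGG1 fell 5.27-fold. Against this direction, CYP79F2 and MAM3, enzymes of the pathway, rose 2.39-fold each. CYP79F2 stood at 31.6, 32.1 and 27.8 CPM in DM6-DM7 and at 12.3, 13.2 and 12.7 CPM in Col-0. Outside the list, the epithiospecifier ESP, which directs glucosinolate breakdown to nitriles, fell 269-fold from 17.1 to 23.7 CPM.

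Jasmonate synthesis was mixed, with 3 genes higher, 2 lower and 6 not called of 11. LOX2, the lipoxygenase of the first step, stood at 1343, 1778 and 1881 CPM in DM6-DM7 and at 263, 497 and 423 CPM in Col-0. AOS, the allene oxide synthase that acts next, stood at 60.3, 54.7 and 64.4 CPM in DM6-DM7 and at 249, 251 and 277 CPM in Col-0. The groups did not overlap for either, and LOX2 rose 4.23-fold while AOS fell 4.33-fold. Of the allene oxide cyclases, AOC3 rose 3.60-fold and AOC1 fell 2.04-fold. The AOC1 call (adjusted p = 0.0258) was lost in 4 of 6 cases when 1 library was left out, at an adjusted p of up to 0.0867. Without Col-0 replicate 1 the synthesis list had 5 higher and 3 lower. Of 22 tested genes of jasmonate signalling, breakdown and response, 7 were lower and 3 higher (median -0.50), and 4 were lower without DM6-DM7 replicate 2. Without Col-0 replicate 1, 7 were lower and 6 higher (median -0.05). MYC2, a main regulator of the response, is listed at 0 in all 6 libraries. The defensin genes lay at the bottom. PDF1.2A stood at 0.0353, 0 and 0 CPM in DM6-DM7 and at 1.12, 12.3 and 28.9 CPM in Col-0. PDF1.2c (AT5G44430; chromosome 5, 17908850 to 17909507) had no count in DM6-DM7 and 0.225, 6.34 and 11.9 CPM in Col-0, and was at least 770-fold lower against a floor of 3 counts over the group. The PDF1.2 copies are near-identical and may share reads, and Col-0 replicate 1 was low for each. ERF1, an activator of defensins, stood at 1.91, 1.79 and 1.21 CPM in DM6-DM7 and at 0.300, 0.272 and 0.159 CPM in Col-0 and rose 6.71-fold. Of 18 ethylene genes, 9 were higher and 1 lower (median 0.63), and without Col-0 replicate 1 the counts were 9 and 3. The transcription factor EIN3 rose 1.90-fold.

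Photosynthesis genes of the nucleus fell without exception in 5 lists, against 26.4% of all genes tested. Lower were 20 of 20 light-harvesting antenna genes (median -1.97), 27 of 27 photosystem, electron transport and ATP synthase genes (-1.74), 9 of 9 NDH genes (-2.06), 18 of 18 Calvin cycle genes (-1.81) and 11 of 11 photorespiration genes (-1.60). Of 23 chlorophyll synthesis genes, 21 were lower and none higher (-1.53). LHCB2.3 (AT3G27690; chromosome 3, 10255906 to 10257489), an antenna protein of photosystem II, stood at 136, 76.9 and 109 CPM in DM6-DM7 and at 1863, 3254 and 3474 CPM in Col-0. It fell 26.7-fold (log2 fold change -4.74 ± 0.34, adjusted p = 0.000102), the largest change in its list. RBCS1A, a small subunit of Rubisco, stood at 6729, 5072 and 6735 CPM in DM6-DM7 and at 25366, 29028 and 29525 CPM in Col-0 and fell 4.53-fold. Near-identical copies of the Rubisco subunit and LHCB1 genes may share reads. The carbonic anhydrase CA1 fell 11.3-fold. The antenna list summed to 32409 to 39592 CPM in DM6-DM7 and to 99474, 148978 and 171852 CPM in Col-0. The counts of calls in all 5 lists were the same without Col-0 replicate 1. Regulators of plastids and light were not uniform, with 12 lower and 2 higher of 16. GLK1 and GNC, activators of chloroplast genes, fell 2.82-fold and 2.36-fold. CGA1, the close relative of GNC, stood at 48, 36.3 and 42.4 CPM in DM6-DM7 and at 19.0, 15.4 and 8.56 CPM in Col-0 and rose 2.95-fold.

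Growth genes fell in most lists. Of 35 cell cycle and DNA replication genes, 24 were lower and 2 higher (median -1.09), with CYCD1;1 3.27-fold and PCNA1 2.2-fold lower. CYCD3;3, a D-type cyclin, stood at 20.7, 21.0 and 21.4 CPM in DM6-DM7 and at 11.4, 9.17 and 10.9 CPM in Col-0 and rose 2.01-fold. The other gene that rose was CYCD2;1. Of 14 cell cycle inhibitors, 4 were higher, 2 lower and 8 not called. Of 25 auxin genes, 18 were lower and 1 higher (median -1.47). The auxin importer LAX2 stood at 2.13, 1.02 and 1.42 CPM in DM6-DM7 and at 23.2, 19.9 and 24.8 CPM in Col-0 and fell 14.9-fold. The auxin synthesis gene YUC4 rose 4.03-fold. SAUR genes, rapid targets of auxin, had 23 lower and 11 higher of 62 (median -1.51), and 19 lower and 11 higher of 43 at a minimum count of 50 (median -0.36). The SAUR list summed to 269, 535 and 533 CPM in Col-0 replicates 1, 2 and 3 and to 328 to 347 CPM in DM6-DM7. Without Col-0 replicate 1, 28 SAUR genes were lower and 12 higher of 65 (median -1.14). Of 15 alpha expansins, which loosen cell walls, 10 were lower and none higher (median -1.45), and EXPA5 fell 18.3-fold. The xyloglucan endotransglucosylases, which cut and join wall polymers, had 12 higher and 7 lower of 25 (median 1.07). XTH25 stood at 13.8, 20.0 and 16.5 CPM in DM6-DM7 and at 0.413, 0.417 and 0.284 CPM in Col-0 and rose 45.2-fold, whereas XTH6 fell 6.28-fold. Of 19 aquaporins, 12 were lower and none higher (median -1.11), while 14 were lower and 2 higher of 20 without Col-0 replicate 1 (median -0.80).

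All 13 genes of the stomatal lineage were lower (median -2.45), and the list summed to 43.6 to 59.6 CPM in DM6-DM7 and 182 to 201 CPM in Col-0. EPFL9, the peptide that promotes stomata, stood at 0.891, 0.813 and 0.736 CPM in DM6-DM7 and at 11.2, 11.8 and 8.56 CPM in Col-0. The groups did not overlap, and EPFL9 fell 13.0-fold (log2 fold change -3.69 ± 0.21, adjusted p = 4.98e-05). SPCH, MUTE and FAMA, which act in turn from lineage entry to guard cells, fell by 1.78, 2.57 and 1.18 on the log2 scale, and MUTE fell by 3.52 without DM6-DM7 replicate 1. The guard cell channel gene KAT1 among the shoot markers was also lower, at 15.2 to 17 CPM against 25.0 to 36.5 CPM. Of 14 gibberellin genes, 6 were higher and 4 lower (median 0.13), and 2 were lower without DM6-DM7 replicate 2 or 3. The receptor genes GID1A and GID1B rose 4.73-fold and 5.03-fold, while the synthesis gene GA20OX1 fell 6.84-fold and RGA, a repressor that the receptors remove, 1.73-fold. GA20OX3, another synthesis gene, stood at 8.63, 10.6 and 9.79 CPM in DM6-DM7 and at 0.0376, 0.0363 and 0 CPM in Col-0. It rose by 8.48 ± 0.53 on the log2 scale. Brassinosteroid genes had 2 higher and 3 lower of 11. KNAT1, a meristem and stem gene, stood at 24.1, 23.4 and 21.7 CPM in DM6-DM7 and at 3.59, 3.86 and 4.2 CPM in Col-0 and rose 5.94-fold. FT, the flowering signal, fell 4.95-fold, and SPL9, a phase change factor, 3.29-fold. Leaf growth factors had 5 lower and 1 higher of 12 (median -1.21), with GRF4 5.69-fold lower, and 2 lower without DM6-DM7 replicate 2 or replicate 3.

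All 5 phosphate starvation genes were higher, with a median of 3.29 and a summed level of 223 to 307 CPM in DM6-DM7 and 32.5 to 39.6 CPM in Col-0. PHT1;1, a phosphate importer, stood at 129, 155 and 158 CPM in DM6-DM7 and at 3.76, 5.02 and 3.83 CPM in Col-0. It rose 35.1-fold (log2 fold change 5.13 ± 0.17, adjusted p = 2.77e-05). PHT1;4, another importer, rose 9.76-fold and SPX1, a phosphate sensor, 3.00-fold. SPX3, a small SPX protein gene that responds to starvation, stood at 0.662, 1.18 and 2.28 CPM in DM6-DM7 and at 0.253, 0.0363 and 0.0454 CPM in Col-0. Its groups did not overlap, and it rose by 3.60 ± 0.90 on the log2 scale, or by 5.03 without Col-0 replicate 1. SPX2 rose by 0.54 (adjusted p = 0.0371), a call lost in 5 of 6 cases when 1 library was left out. Without DM6-DM7 replicate 3 the list had 3 genes called in place of 5, since SPX3 was lost too. The importers are known for root uptake, and root markers stood near zero in both groups.

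Several lists moved with Col-0 replicate 1, so they are given with and without it. Of 24 genes of abscisic acid and cold response, 9 were lower and none higher (median -2.26). COR15A, a cold protection protein gene, stood at 0.556, 0.406 and 0.324 CPM in DM6-DM7 and at 83.4, 6.80 and 7.41 CPM in Col-0. The groups did not overlap, and the log2 fold change was -6.25, or -4.07 without Col-0 replicate 1. That list summed to 2914 CPM in Col-0 replicate 1, 738 and 722 CPM in the other Col-0 libraries and 726 to 737 CPM in DM6-DM7. Without Col-0 replicate 1, 10 genes were lower and 5 higher, with a median of -0.42. Leaving out a DM6-DM7 library gave 4 lower genes (replicate 1 or 3) or 3 (replicate 2), and dropping the filter on low counts gave 5. Of 11 flavonoid and anthocyanin genes, 9 were lower (median -4.28), and 7 were lower and 1 higher without Col-0 replicate 1 (median -2.67). CHS, the first enzyme of flavonoids, stood at 28.5, 7.45 and 10.7 CPM in DM6-DM7 and at 1278, 339 and 220 CPM in Col-0. Its log2 fold change was -5.30, or -4.19 without Col-0 replicate 1. Iron homeostasis genes had 3 lower and 1 higher of 16 (median -0.76), and without that library 2 lower and 4 higher (median 0.07). YSL1, a metal transporter gene, stood at 107, 123 and 126 CPM in DM6-DM7 and at 16.8, 37.6 and 24.9 CPM in Col-0 and rose 4.49-fold. NAC factors had 33 higher and 14 lower of 76 (median 0.45), and 42 and 12 without that library. What sets Col-0 replicate 1 apart was not tested. Circadian clock genes had 3 higher and 3 lower of 13 (median 0.19), and without Col-0 replicate 1 the median was -0.03. Without DM6-DM7 replicate 2 they had 2 higher and 3 lower (median -0.20). CCA1, a morning gene, stood at 118, 96.7 and 90.5 CPM in DM6-DM7 and at 440, 304 and 193 CPM in Col-0 and fell 3.07-fold, while TOC1, an evening gene, rose 2.13-fold. The hour of harvest is not given in the labels.

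**Figure D4:**
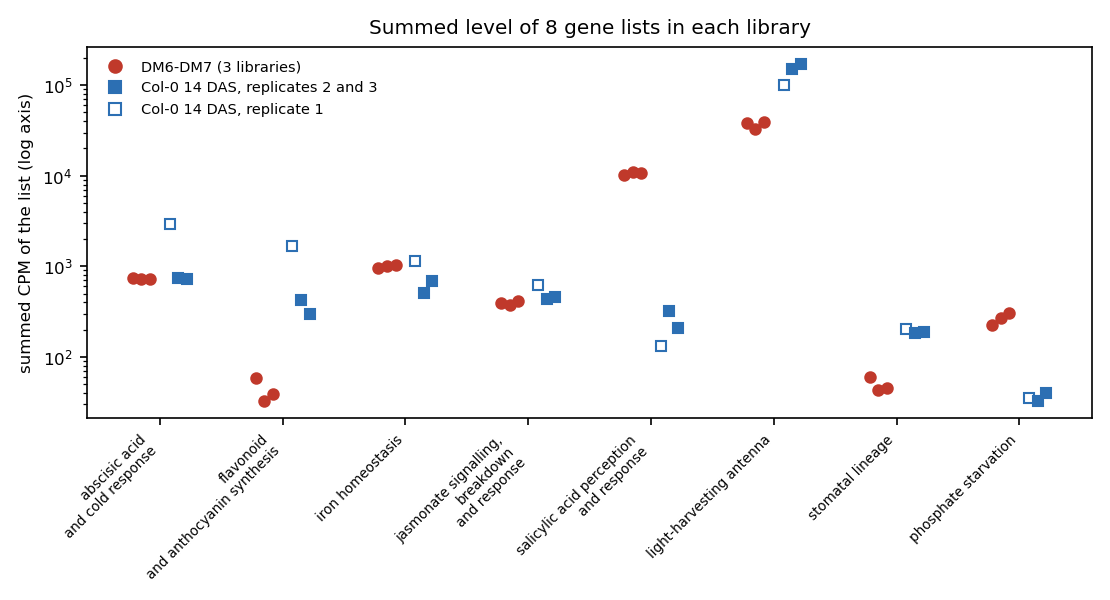
Points are the summed CPM of 8 gene lists in each library on a log axis, with DM6-DM7 as circles, Col-0 14 DAS as squares and Col-0 replicate 1 as open squares. Col-0 replicate 1 stands alone at 2914 CPM for abscisic acid and cold response, while for light harvesting, stomatal lineage and phosphate starvation the groups do not overlap.

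Among genes with a mean of at least 2 CPM, the highest fold change was that of WRKY59 (AT2G21900; chromosome 2, 9333844 to 9336278). It stood at 10.3, 8.76 and 7.88 CPM in DM6-DM7 and had 0.0181 CPM in 1 Col-0 library and none in the others. The ratio of its counts was 1365, with a 95% counting interval from 377 to 11272 that is too narrow where both mates of a pair were counted. WRKY62, of the same family, had a ratio of 1279 (354 to 10564), and NSP2, a nitrile specifier of glucosinolate breakdown, one of 844 (233 to 6972). AT2G44240 stood at 85.9, 73.7 and 100 CPM in DM6-DM7 and at 0.188, 0.136 and 0.114 CPM in Col-0, a rise of 594-fold. At the other end stood the PDF1.2 defensins, ESP and TGG2. AT1G66100, annotated as a thionin, an antimicrobial peptide, stood at 0.229, 0.312 and 0.194 CPM in DM6-DM7 and at 124, 147 and 157 CPM in Col-0 and fell 582-fold. GolS2, which makes a sugar of drought and cold response, fell 337-fold, and its log2 fold change of -8.39 was -5.98 without Col-0 replicate 1. Tau-class glutathione S-transferases went both ways, with 10 higher and 7 lower of 25. GSTU27 stood at 130, 159 and 163 CPM in DM6-DM7 and at 19.3, 25.7 and 23.1 CPM in Col-0 and rose 6.65-fold. GSTU13 stood at 10.5, 4.96 and 7.68 CPM in DM6-DM7 and at 53.6, 61.0 and 72.8 CPM in Col-0 and fell 8.09-fold. Of 13 MLO family genes, 4 were higher and 3 lower (median 0.25). Only 1 was lower without Col-0 replicate 1 or 2, or without DM6-DM7 replicate 2 or 3. Among the higher genes is AT1G16700, which shares the symbol MLO14 with the untested AT1G26700 and may be another protein. MLO2 and MLO12, known for powdery mildew susceptibility, rose 2.96-fold and 4.73-fold, while MLO4 fell 2.89-fold.

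The motifs marked above were counted in the 300 bases before 27443 nuclear protein-coding genes, on both strands. The W-box core TTGAC stood in 50.4% of all promoters, in 60.5% of 2854 genes at least 2-fold higher, in 46.3% of 3505 at least 2-fold lower and in 49.2% of 9309 not called. In the CRK family it stood in 77.5% of 40 promoters, in the receptor-like proteins in 76.4% of 55 and in the WRKY family in 59.2% of 71. The promoters shown for PRX34 and CRK18 hold 3 cores each. The G-box CACGTG stood in 7.09% of all promoters, 6.17% of the higher and 9.04% of the lower genes, and in 23.8% of 21 antenna genes. P1BS stood in 6.5% of all promoters and in 1 of 5 phosphate starvation genes, SPX3, which holds it 213 and 90 bases from the start. The other motifs searched were TGACG (TGA factor core), GATAAG (I-box), CCGAC (C-repeat) and AAAATATCT (evening element), present in 21.3%, 14.5%, 13.9% and 2.79% of all promoters. The higher genes held them in 24.2%, 16.5%, 11.7% and 3.4%, and the lower genes in 21.7%, 14.4%, 14.7% and 2.71%. TTGAC and TGACG can overlap by 4 bases in TTGACG. A match is a short run of letters and shows neither binding nor a cause.

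The changes in DM6-DM7 were set against those in DM1-DM2d, a line of the same series that carries a pair of TIR-type NLR genes, with its own Col-0 group at 12 DAS. Age and batch differ with the line and cannot be told apart from it. The Col-0 groups differed too, with means of 62.6 CPM at 14 DAS and 1.00 CPM at 12 DAS for the clock gene RVE8. For the clock gene GI the means were 33.9 and 176 CPM. How far such differences between the controls enter the comparison of the lines was not tested. The difference of the changes was called for 11414 of 23118 genes (49.4%), with 6278 (27.2%) higher and 5136 (22.2%) lower in DM6-DM7. The balance turned with the scaling, to 5503 higher and 6186 lower with RLE and 5722 and 6443 with DESeq2. Calls for each line come here from the fit of all 20 libraries, which called 15001 genes in DM6-DM7 in place of 11148. Of the 23118 genes tested, 11650 were called in both lines in the same direction and 917 in opposite directions. Photosynthesis genes fell less in DM6-DM7. The light-harvesting medians were -1.89 in DM6-DM7 and -5.24 in DM1-DM2d, and the difference was called higher for 18 of 20 genes and lower for 1. All 27 photosystem and all 18 Calvin cycle genes had a called difference in that direction. Leaf growth factors had medians of -1.13 and -4.18, with 10 of 12 called higher. Immune lists were not uniform. The medians for salicylic acid synthesis were 2.18 and 4.73 (6 of 8 called lower, 1 higher) and for autophagy 0.99 and 2.31 (13 of 14 called lower). The WRKY genes had medians of 1.86 and 1.83, with 16 of 69 called higher and 18 lower. The receptor-like proteins had medians of 1.81 and 1.3, with 17 of 48 called higher and 4 lower. The CRKs had medians of 2.71 and 1.91, with 11 of 39 called higher and 3 lower. The RPP7 cluster had medians of 1.56 and 0.30 (4 of 10 called higher, 1 lower), and introduced DM6 reads may count there in DM6-DM7. The HR genes, relatives of DM7, were high in DM1-DM2d too, where DM7 was not introduced, with a median of 5.22. Their median difference between the lines was -0.54, with 0 of 4 called higher and 0 lower. How far introduced DM7 reads add to the HR counts in DM6-DM7 was not tested. Phosphate starvation genes had medians of 3.37 and -0.47, and the difference was called higher for 5 of 5.

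**Figure D5:**
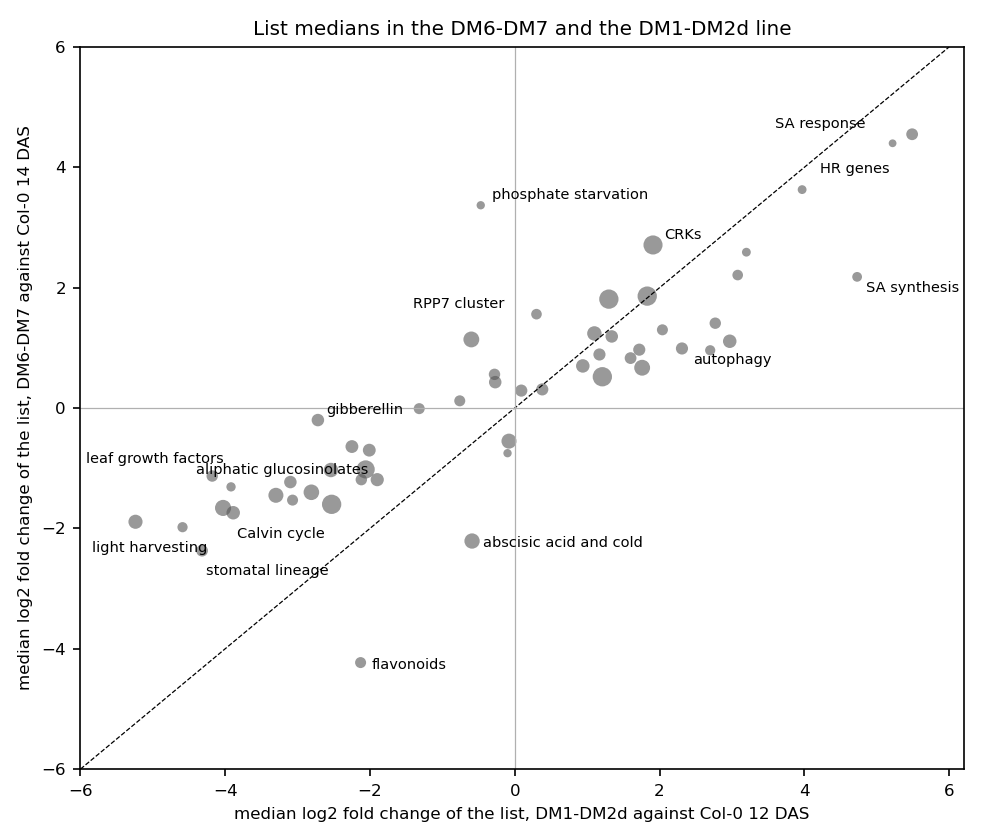
Each point is a gene list, with its median log2 fold change in DM1-DM2d against Col-0 12 DAS on the x axis and in DM6-DM7 against Col-0 14 DAS on the y axis, its area growing with the number of genes tested; the dashed line marks equal medians. Light harvesting lies at -5.24 and -1.89, above the line, and phosphate starvation at -0.47 and 3.37.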

How the data were processed

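RNA was sequenced from aerial tissue as strand-specific libraries of 150 bp pairs, per the labels' protocols. The authors deposited raw counts per gene, whole numbers with no normalization. Per the submitters' processing notes, the build was TAIR10 and the tools included DESeq2 1.34.0, featureCounts 2.0.1, HISAT2 2.2.1 and fastp 0.23.2. Counting options are not given in the sources used here. Of counts below 20, 75.8% to 78.4% were even, a pattern that arises when both mates of a pair are counted. Counting intervals and the floor of 3 counts cover counting error only and take each count as independent, which makes them too narrow. Chromatin accessibility data were not analysed here.

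The 6 libraries entered 1 fit in edgeR 4.0.16 under R 4.3.3, with trimmed mean of M values (TMM) scaling, filterByExpr at a minimum count of 10 and a robust quasi-likelihood test, adjusted by Benjamini-Hochberg over 21024 genes. The threshold was an adjusted p of 0.05. CPM used the library total times the TMM factor (0.835 to 1.16), so CPM are not per length. A fold is the ratio of the mean CPM of the groups, and a standard error (SE) is the absolute log2 fold change over the square root of the F statistic. The difference between lines came from all 20 libraries with 1 term per group, so CPM there differ slightly, and batch was no term because each group lies in 1 batch. The procedure was tested on simulated data for DM6-DM7 against Col-0 (20632 genes), where 100 genes were changed 2-fold and 100 were changed 4-fold. It recovered 24% of the former and 75% of the latter, and 9.17% of its calls were false, above the nominal level. In the real data 53.4% of genes were called. The Benjamini-Hochberg cut-off depends on the share of genes that change, so these figures need not hold for the real comparison.

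The 55 lists hold 1096 genes, of which 983 were tested. Of the list entries not tested, 38 were at 0 in all 6 libraries, MYC2 and LHCB1.5 among them, and the cause was not tested. The members and lists were chosen with earlier results of these data known. Genes were open to naming as follows: all members of the helper and RPP7/HR lists; per list, up to 3 called genes in the main direction and up to 2 in the opposite one, by lowest adjusted p, or the most counted gene where none was called; the shoot, root, and flowering and meristem markers by level; the 10 highest and 10 lowest fold changes among called genes whose groups do not overlap and whose mean reaches 2 CPM; the 5 most counted genes in each direction; and the 5 highest and 5 lowest differences between lines. Other genes named, such as ICS1, EDS5, PBS3, EPS1, PR2, FMO1, ALD1, the NPR and MPK genes, RLP23, FLS2, RBOHD, SPX2, SPX3, SPCH, MUTE and FAMA, were chosen after their values were seen, as were the promoters shown. A pair of symbols in the lists, CNX2 and HPR1, belongs to other loci in the annotation, and the intended loci were kept by identifier. The pattern for the aquaporin family was corrected after the gene names were seen. Coordinates and promoters come from TAIR10.1, whose identifiers matched all 32548 nuclear genes.

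Alternatives were a fit of all 20 libraries (for the difference between lines, of the 11 libraries of its 4 groups), RLE and upper-quartile scaling, nuclear genes only, no filter, a minimum count of 50, DESeq2 1.42.0, the replicate number as a block, an adjusted p of 0.01, a test against a fold of 2, and leaving out each library.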

Additional observations from a re-analysis of the deposited data

Results flagged for a closer look

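The change in DM6-DM7 differed from that in DM1-DM2d for 11414 genes, by a test of the difference itself in 1 fit of all 20 libraries (edgeR quasi-likelihood, Benjamini-Hochberg). Each adjusted p below is of that difference. Age and batch differ with the line and cannot be told apart from it.

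The 5 highest and 5 lowest differences were mostly of genes at or near 0 in 1 or more groups, so levels are given. IPS1, a non-coding RNA of phosphate starvation, stood at 2.26, 0.641 and 2.71 CPM in DM6-DM7 and at 0.120, 0.152 and 0 CPM in Col-0 14 DAS. In DM1-DM2d it stood at 0.0218, 0 and 0.0457 CPM and in Col-0 12 DAS at 14.9 and 9.52 CPM, so the lines went opposite ways (adjusted p = 1.13e-06). WRKY49 had no count in DM1-DM2d and 9.52 and 8.02 CPM in its control, and stood at 2.72 to 3.51 CPM in DM6-DM7 and 1.22 to 2.15 CPM in its own (adjusted p = 1.28e-08). AT3G25240 stood at 0.754 to 1.14 CPM in DM6-DM7 and at most 0.0235 CPM in its control, against 0.164 to 0.343 CPM in DM1-DM2d and 12.8 and 14.5 CPM in its own (adjusted p = 2.01e-09). AT3G16670 was lower in both lines, by 2.27 in DM6-DM7, and nearly absent from DM1-DM2d (adjusted p = 3.49e-07). EGL3, a factor of trichomes and anthocyanins, was absent from DM1-DM2d and stood at 0.374 to 1.37 CPM in DM6-DM7 (adjusted p = 1.47e-05). On the other side, AT1G67635 (adjusted p = 0.000511), AT3G23060 (adjusted p = 0.00647) and AT5G43520 (adjusted p = 2.45e-05) stood at 6.73 CPM or more in each DM1-DM2d library and at 0.410 CPM or less in the others. AT5G63225 stood at 332 to 365 CPM in DM1-DM2d and 1.45 to 1.96 CPM in DM6-DM7 (adjusted p = 0.000125). CRA1, a seed storage protein gene, rests on DM1-DM2d replicate 3, with 0.0655, 0.0351 and 25.9 CPM in that group (adjusted p = 0.0402).

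The genes that follow were picked after their values were seen. The phosphate importer PHT1;1 changed by 5.21 in DM6-DM7 and -0.24 in DM1-DM2d on the log2 scale (adjusted p = 9.33e-09). PHT1;4 changed by 3.37 and -0.47 (adjusted p = 2.76e-06), SPX1 by 1.66 and -2.73 (adjusted p = 1.33e-07) and SPX3 by 3.65 and -3.50 (adjusted p = 4.12e-06). Other genes had a positive change in DM6-DM7 and a negative one in DM1-DM2d. They were LOX2 (2.16 and -1.77, adjusted p = 5.25e-08), CYP79F2 (1.33 and -2.73, adjusted p = 1.17e-10), MAM3 (1.33 and -1.72, adjusted p = 1.42e-08), GID1A (2.32 and -0.97, adjusted p = 1.95e-10), GASA4 (0.62 and -3.90, adjusted p = 6.60e-12) and CAT3 (2.58 and -0.74, adjusted p = 9.64e-07). Each change is against the line's own Col-0 group, and those groups differed too. Mean CPM in Col-0 14 DAS and Col-0 12 DAS was 11.8 and 130 for SPX1 and 0.118 and 3.61 for SPX3. It was 9.86 and 34.8 for GID1A, 13.4 and 32.4 for CYP79F2, 45.9 and 122 for GASA4 and 1057 and 2250 for CAT3. It was 413 and 486 for LOX2, and 23.6 and 10.2 for MAM3, where Col-0 14 DAS was higher. Among clock genes it was 62.6 and 1.00 for RVE8, 40.6 and 1.59 for RVE1 and 33.9 and 176 for GI. How far the controls set the opposite signs was not tested. For the photosynthesis genes the changes were negative in both, for RBCS1A -2.10 and -3.92 (adjusted p = 5.79e-07) and for LHCB2.3 -4.66 and -6.99 (adjusted p = 0.000218). For the immune genes they were positive in both, for ICS1 2.08 and 4.78 (adjusted p = 0.00339), for PR1 8.02 and 11.05 (adjusted p = 0.0104) and for RPP7 0.78 and 0.37 (adjusted p = 0.0403).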

How the results depend on the processing

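Of the changes in DM6-DM7 against Col-0, 11148 genes were called, and 15001 in a fit of all 20 libraries. With the replicate number as a block 10270 were called, and no direction changed. The numbers did not pair the libraries, since same-numbered deviations correlated at 0.0585, 0.0164 and 0.0438. A test against a fold of 2 called 3719 genes, 1809 higher and 1910 lower, and an adjusted p of 0.01 called 3736 higher. Leaving out 1 library gave 8413 (without DM6-DM7 replicate 2) to 11649 genes (without Col-0 replicate 1), 4170 to 5910 higher and 4243 to 5739 lower. With 1 library left out, the difference between lines ranged from 9633 to 12240 genes, 5443 to 6929 higher and 4190 to 5428 lower. It was 9493 genes in a fit of 11 libraries, 11138 with the replicate block, 11689 with RLE (5503 higher, 6186 lower), 12165 with DESeq2 (5722 and 6443) and 11368 with upper-quartile scaling (6968 and 4400). Upper-quartile scaling moved the median of all genes from 0.01 to -0.12 and the higher share of calls from 50.5% to 42%. The circadian clock list had no main direction (3 higher, 3 lower). Its median turned from 0.19 to -0.20 without DM6-DM7 replicate 2 (2 higher, 3 lower) and to -0.03 without Col-0 replicate 1. The direction of the iron list reversed without Col-0 replicate 1 (2 lower, 4 higher), and that list had 5 lower without Col-0 replicate 2. With the block the abscisic acid and cold list had 5 lower genes, and the calls of NRG1.1, SAMDC, AT1G59780, BHLH39, CML39 and MLO11 were lost. With 3 libraries a group, changes near 2-fold can be missed, so a gene not called is not shown to be unchanged.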
